A study of Homo sapiens with 10 samples.

Results

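H3K27ac peaks that shared no base with an H3K18ac peak were examined in 2 prostate cancer cell lines. The members were selected on the peak lists themselves. An H3K27ac peak of C4-2B was kept where it overlapped no H3K18ac peak of C4-2B, and an H3K27ac peak of C4-2BER where it overlapped no H3K18ac peak of C4-2BER. This gave 4224 of 68034 H3K27ac peaks in C4-2B (6.21%) and 5472 of 72971 in C4-2BER (7.5%), or 9696 of 141005 over both lists. The members covered 2.72 Mb in C4-2B and 4.86 Mb in C4-2BER. The absence of an H3K18ac peak is the rule and not a result, and with 1 pooled list per mark and cell line no difference between the lines could be tested.

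The first line, C4-2B, models prostate adenocarcinoma that has become castration-resistant. The second, C4-2BER, was obtained by growing C4-2B continuously in enzalutamide, a drug that blocks androgen signalling, until it was resistant, and the study describes it as neuroendocrine-like. Chromatin of both lines was crosslinked with DSG and formaldehyde and immunoprecipitated with an antibody against H3K18ac or H3K27ac, with 2 libraries per mark and line and 1 input library per line, and the replicates were merged before peak calling. The lines are grown cultures of 1 lineage, so other neuroendocrine models are not represented. As a check of the labels, of 14 genes of luminal prostate cells, 13 had an H3K27ac promoter peak in C4-2B and 14 in C4-2BER. Of 23 neuroendocrine genes, 12 had one in each line, so the counts of genes with a promoter peak did not separate the lines. The counts do not show whether these were the same genes.

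Acetylation of lysines on the tail of histone H3 marks active promoters and enhancers. The acetyltransferases p300 and CBP acetylate both lysines studied here, and the marks usually occupy the same elements. Acetylation is also found at lower levels along the transcribed bodies of active genes, downstream of the transcription start site (TSS).

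The sequences below are the central 300 bp of the members with the highest H3K27ac fold enrichment, taken from GRCh38 on the plus strand. They are shown because the strongest members are few and several of them consist of repeated or duplicated sequence. Capitals mark matches to short motifs, which are spelled out with their shares below, and runs of at least 16 bases of alternating C and A or T and G. The first C4-2B member is at chrX:122273714-122274013, between genes and 910414 bp upstream of the nearest canonical TSS, that of GRIA3, a glutamate receptor subunit. It had a fold enrichment of 8.19, the highest of all members, and its window holds a run of 53 bases. The next, in a promoter window within TRIM73, had a fold enrichment of 7.84. Its 32-base words occur at a median of 34.5 places of the genome, and its sequence is not shown.
C4-2B, GRIA3 region: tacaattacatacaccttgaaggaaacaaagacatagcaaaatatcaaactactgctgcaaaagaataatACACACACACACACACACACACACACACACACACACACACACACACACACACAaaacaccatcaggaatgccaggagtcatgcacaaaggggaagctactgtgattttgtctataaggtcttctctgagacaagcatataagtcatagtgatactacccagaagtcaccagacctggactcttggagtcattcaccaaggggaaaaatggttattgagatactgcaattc
The strongest C4-2BER member, at chr9:61330753-61331052 in the promoter of CNTNAP3C, had a fold enrichment of 6.75 and 32-base words at a median of 4.5 places. Its capitals are 1 E-box match. The next, at chr10:47705845-47706144 and nearest to SYT15B, had a fold enrichment of 6.48 and words at a median of 3 places. Its capitals are 4 GC box matches.
C4-2BER, CNTNAP3C: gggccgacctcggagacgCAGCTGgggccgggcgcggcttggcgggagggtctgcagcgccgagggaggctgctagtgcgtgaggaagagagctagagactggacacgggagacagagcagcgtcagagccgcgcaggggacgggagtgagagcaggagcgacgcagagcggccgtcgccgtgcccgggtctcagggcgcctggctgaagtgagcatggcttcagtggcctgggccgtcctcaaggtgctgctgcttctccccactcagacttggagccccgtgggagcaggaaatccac
C4-2BER, SYT15B region: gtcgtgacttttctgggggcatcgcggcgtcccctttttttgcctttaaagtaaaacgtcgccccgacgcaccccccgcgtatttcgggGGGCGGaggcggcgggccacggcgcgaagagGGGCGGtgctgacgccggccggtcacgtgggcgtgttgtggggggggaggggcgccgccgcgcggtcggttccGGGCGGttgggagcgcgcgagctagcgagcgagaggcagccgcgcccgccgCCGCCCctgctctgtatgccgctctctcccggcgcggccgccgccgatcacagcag
Where members of both lines overlapped, places were ordered by the lower of the 2 fold enrichments. The first was at chr9:67723687-67723986, nearest to ANKRD20A1, with a run of 36 bases and words at a median of 15 places. The second, at chr6:140463267-140463566, had words at 1 place only and 1 match to the HOXB13 motif. It lay in an intron, and the nearest canonical protein-coding TSS, that of CITED2, was 1088769 bp away.
Both lines, ANKRD20A1 region: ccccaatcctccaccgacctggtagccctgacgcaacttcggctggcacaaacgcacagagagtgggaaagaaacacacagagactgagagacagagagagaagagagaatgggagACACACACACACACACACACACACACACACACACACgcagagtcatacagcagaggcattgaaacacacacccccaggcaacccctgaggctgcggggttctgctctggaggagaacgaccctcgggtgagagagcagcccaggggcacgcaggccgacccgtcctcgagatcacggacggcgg
Both lines, CITED2 region: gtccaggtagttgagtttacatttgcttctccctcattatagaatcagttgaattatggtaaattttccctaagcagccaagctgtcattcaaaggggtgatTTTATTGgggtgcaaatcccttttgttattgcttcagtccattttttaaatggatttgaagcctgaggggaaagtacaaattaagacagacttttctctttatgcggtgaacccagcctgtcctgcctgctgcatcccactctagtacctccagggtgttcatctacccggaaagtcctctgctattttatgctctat

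Members were weak and narrow H3K27ac peaks in both lines. Their median fold enrichment over the local background was 2.62 in C4-2B (95% order-statistic interval 2.61 to 2.64), against 3.62 in the other H3K27ac peaks of that line. In C4-2BER it was 2.26 (2.25 to 2.27) against 3.52. Their median width was 448.5 bp against 1098 bp in C4-2B, and 703 bp against 1255 bp in C4-2BER. The highest member reached 8.19 in C4-2B and 6.75 in C4-2BER, where the strongest H3K27ac peaks of all reached 58.7 and 36.7. A fold enrichment is scaled within its own list, so the levels of the 2 lines are given side by side and not compared.

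The share of peaks without H3K18ac fell with peak strength. In C4-2B it was 15.1% in decile 1, the lowest, of fold enrichment, 9.48% in decile 4 and 0.338% in decile 8. In C4-2BER it was 27.2%, 6.03% and 0.11% in the same deciles. Neither line had a member in deciles 9 and 10, which start at a fold enrichment of 9.24 in C4-2B and 7.72 in C4-2BER. Width gave the same order, from 16.2% in the narrowest decile to 0.118% in the widest in C4-2B, and from 15.3% to 0.548% in C4-2BER. A wide peak has more bases that can meet H3K18ac, so the rule itself favours narrow peaks, and its part in this order was not tested. The members thus belonged to the low range of the H3K27ac lists.

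Base composition, read over the whole peak, differed between the 2 sets. In C4-2B the median GC content of members was 48.8% (48.5 to 49.1) and that of other peaks was 54.3% (54.2 to 54.3). The share of peaks without H3K18ac there fell from 16.3% in decile 1 of GC content to 1.65% in decile 10. In C4-2BER the medians were 51.3% (51.1 to 51.6) and 50.9% (50.8 to 51.0), and the share was 7.55% in decile 1 and 7.36% in decile 10. Within the 4 lowest deciles of fold enrichment the members of C4-2BER were on the GC-poor side, with a median of 51.7% against 52.0%. They were also on that side when only the central 300 bp of all peaks were read, with 50.7% against 51.3%. GC-rich peaks were thus rare among the C4-2B members, while in C4-2BER the share lay between 6.06% and 8.36% in all 10 deciles of GC content, which does not describe the extremes within decile 1 or 10. The median GC content of all H3K27ac peaks also differed between the lists, 53.9% in C4-2B and 50.9% in C4-2BER, and the part of this difference was not tested.

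**Figure D1:**
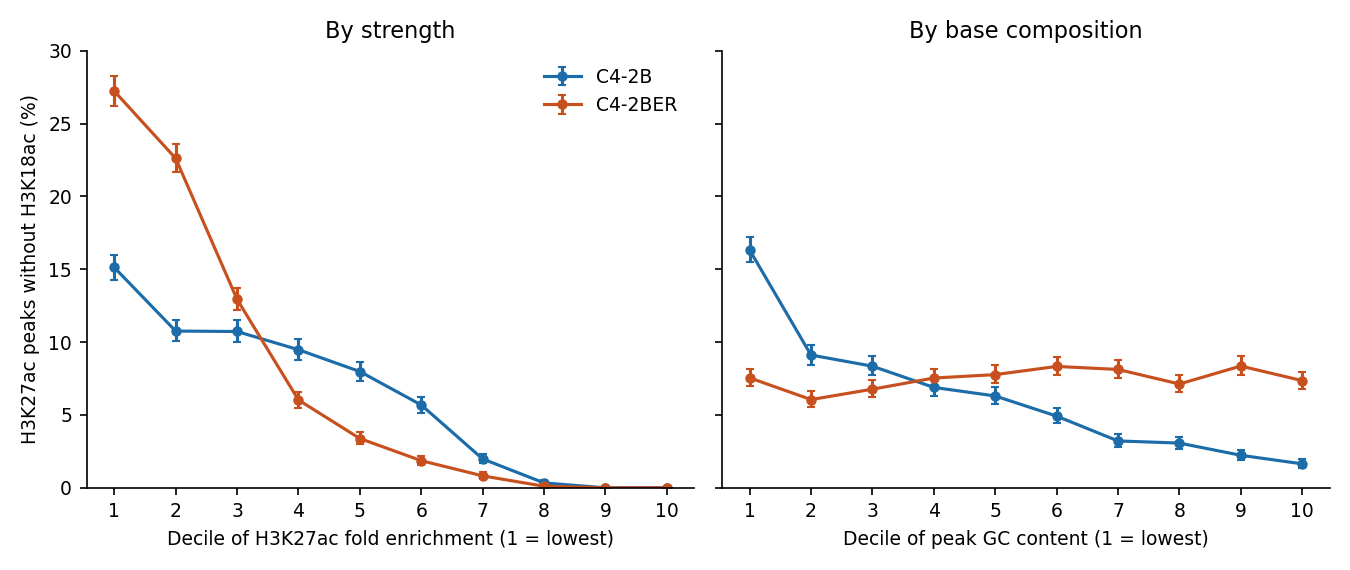
Share of H3K27ac peaks (percent) with no H3K18ac peak, by decile of H3K27ac fold enrichment (left) and by decile of GC content (right), in C4-2B and C4-2BER; bars are 95% Wilson intervals. The share falls to 0 in the strongest deciles of both lines, and with rising GC content it falls from 16.3% to 1.65% in C4-2B but starts and ends near 7.5% in C4-2BER.

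The H3K18ac lists that define the members are long. They hold 198451 peaks over 293 Mb in C4-2B and 197948 peaks over 321 Mb in C4-2BER. Their fold enrichment had a 5th percentile of 2.2 and 2.07 and a median of 2.74 and 2.55. The distances to H3K18ac come from the list that chose the members and are given as a description. The median gap to the nearest H3K18ac peak was 2494.5 bp in C4-2B and 3293 bp in C4-2BER, and 88.4% and 85.5% of members had one within 10 kb. H3K18ac lay within 10 kb on both sides of 52.6% of the C4-2B members and 46.6% of the C4-2BER members. For all H3K27ac peaks the same count gave 72.4% and 69.7%. Most of those peaks overlap H3K18ac, and the overlapping peak can itself count as lying within 10 kb. The rule that chose the members thus favours this contrast, so nothing is concluded from it. At the edge of the rule, 36 members of C4-2B and 64 of C4-2BER were at most 100 bp from an H3K18ac peak, and 150 and 172 other peaks shared at most 100 bp with one. The nearest member was a C4-2B peak beside MYBBP1A with fold enrichment 2.24 and a gap of 0 bp. On the other side, C4-2B peaks beside XKR8, DEAF1 and COL20A1 each shared 2 bp. Their fold enrichments were 2.31, 2.33 and 2.31. Far from any H3K18ac peak, by over 100000 bp, were 21 members of C4-2B and 13 of C4-2BER. The sets depend on how weak an H3K18ac peak is allowed to count. With only H3K18ac peaks of fold enrichment 4 or more, 38239 H3K27ac peaks of C4-2B and 45249 of C4-2BER lacked H3K18ac, so members are places without a called peak and not places shown to lack the mark.

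Members lay mainly inside annotated genes. In C4-2B 2345 of the 4224 members were intronic (55.5%), 340 exonic (8.05%), 957 in a promoter window (22.7%) and 582 intergenic (13.8%). In C4-2BER 2775 of the 5472 were intronic (50.7%), 534 exonic (9.76%), 1678 in a promoter window (30.7%) and 485 intergenic (8.86%). A promoter window runs from 2000 bp upstream to 500 bp downstream of any annotated TSS of a protein-coding or lncRNA gene. Of the other H3K27ac peaks, 20.5% were intergenic in C4-2B and 23.1% in C4-2BER, exons held 4.20% and 3.32%, and introns 40.5% and 42.1% of them. Within the 4 lowest deciles of fold enrichment introns held 55.8% of members against 49.1% of other peaks in C4-2B, and 51.0% against 51.6% in C4-2BER.

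The promoter members were mostly not at main start sites. When only the canonical TSS of each gene was used, 4.52% of the C4-2B members (3.94 to 5.19) and 4.73% of the C4-2BER members (4.20 to 5.33) were in a promoter window. The same share was 23.7% of the other peaks in C4-2B and 22.3% in C4-2BER. Among peaks of the 4 lowest deciles of fold enrichment, it was 3.92% against 7.40% in C4-2B and 4.14% against 6.70% in C4-2BER. With every annotated TSS, 22.7% of members against 34.7% of other peaks were in a promoter window in C4-2B, and 30.7% against 31.5% in C4-2BER. In the 4 lowest deciles that order was the opposite, 24.4% against 21.1% and 31.1% against 16.4%. Within these deciles members thus met annotated start sites as a whole more often than other peaks, and canonical ones less often.

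Gene bodies with both marks at the start site held most members. A gene was counted as carrying both marks where an H3K27ac peak that overlapped H3K18ac lay within 1 kb of its canonical TSS, which held for 13789 of 20033 protein-coding genes in C4-2B and 13872 in C4-2BER. The midpoints of 3029 C4-2B members were inside such a gene (71.7%, 70.3 to 73.0), against 58.9% of the other peaks (58.5 to 59.3). In C4-2BER 4550 members were (83.2%, 82.1 to 84.1), against 55.3% (54.9 to 55.7). Within the 4 lowest deciles of fold enrichment, which bring the sets closer in strength, the values were 78.5% against 58.3% and 86.0% against 52.0%. Members stayed the weaker within these deciles, with a median fold enrichment of 2.49 against 2.54 in C4-2B and 2.24 against 2.39 in C4-2BER. Seen by gene, 16.7% of the genes with both marks at the TSS and 3.43% of the others had a member in the body in C4-2B, and in C4-2BER 21.2% and 3.10%.

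This pattern belonged to the weak members and turned round in the strong ones. Among C4-2B members with a fold enrichment of at most 2.5, 82.4% were in such a gene (1623 members), against 58.8% of other peaks of that strength. From 3 to 4 it was 56.7% against 53.0%, and above 5 it was 31.6% (21.0 to 44.5, 57 members) against 63.8%. In C4-2BER the share was 87.0% at or below 2.5 (4389 members) and 52.0% from 3 to 4. Above 5 it was 5.88% (1.05 to 27, 17 members) against 63.0%. The size of this reversal is partly set by the definition, since peaks with H3K18ac at a TSS make the label and members cannot. The sets above 5 are also unlike in strength, as C4-2B members end at 8.19 and other peaks at 58.7. In decile 8 of C4-2B it was 26.1% against 53.8%, and other peaks reached 77.9% in decile 10, which has no member.

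**Figure D2:**
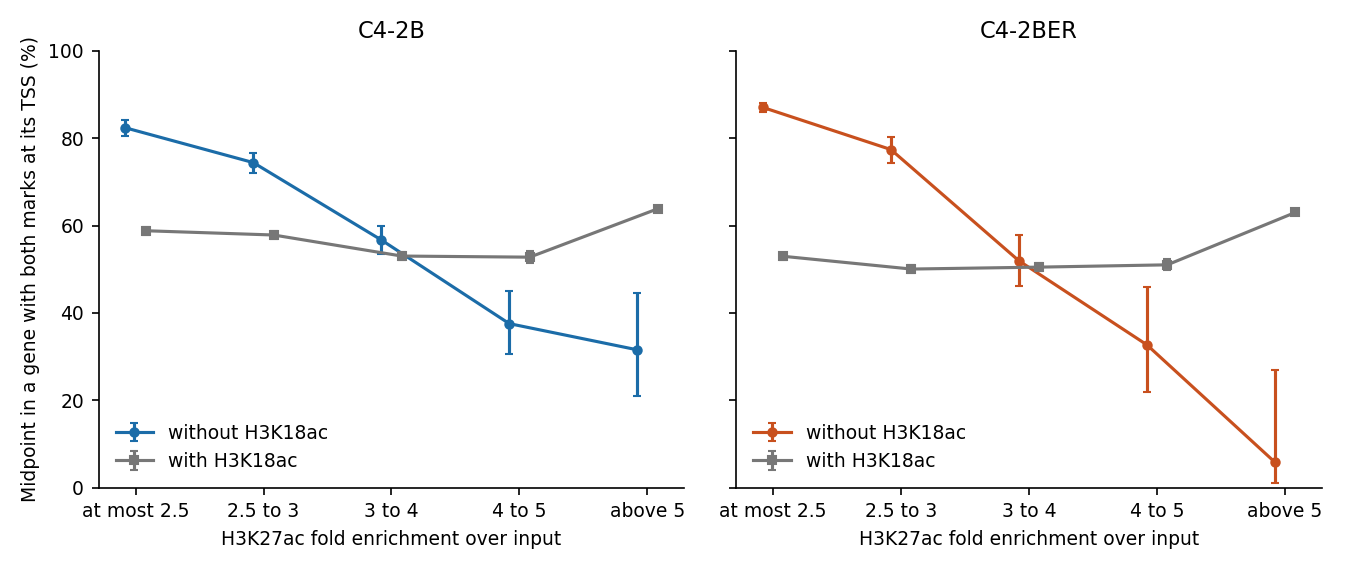
Share of H3K27ac peaks (percent) whose midpoint is in a protein-coding gene with both marks at its TSS, by band of H3K27ac fold enrichment, for peaks without and with H3K18ac in each line; bars are 95% Wilson intervals. The members run from 82.4% down to 31.6% in C4-2B and from 87.0% down to 5.88% in C4-2BER, and are below the other peaks above a fold enrichment of 4 in both lines.

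Around the nearest canonical TSS the members were placed asymmetrically. In C4-2B 23% of members lay 2 to 10 kb downstream (21.7 to 24.3) and 6.11% lay 2 to 10 kb upstream, where the other peaks had 8.96% and 5.71%. In C4-2BER 24.3% lay downstream (23.2 to 25.5) and 8.22% upstream, against 7.62% and 5.34%. Within 2 kb of the TSS, on either side, there were 93 C4-2B members (2.2%) and 87 C4-2BER members (1.59%), against 17.9% and 16.4% of other peaks. Among peaks of the 4 lowest deciles of fold enrichment the downstream excess stayed, with 26.2% against 11.1% in C4-2B and 25.4% against 8.45% in C4-2BER. Members also lay further along their genes than other peaks. The median in-gene position was 50.1% of the gene length against 40.9% in C4-2B, and 59.3% against 39.3% in C4-2BER. Among in-gene peaks of the 4 lowest deciles, the median member of C4-2BER was at 59.8% of the length of its gene, against 48.6% for other peaks, and 27.3% against 21.1% lay in the last 20% of the gene. In C4-2B the medians in these deciles were 51.7% and 53.8%, so the order there was the opposite.

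**Figure D3:**
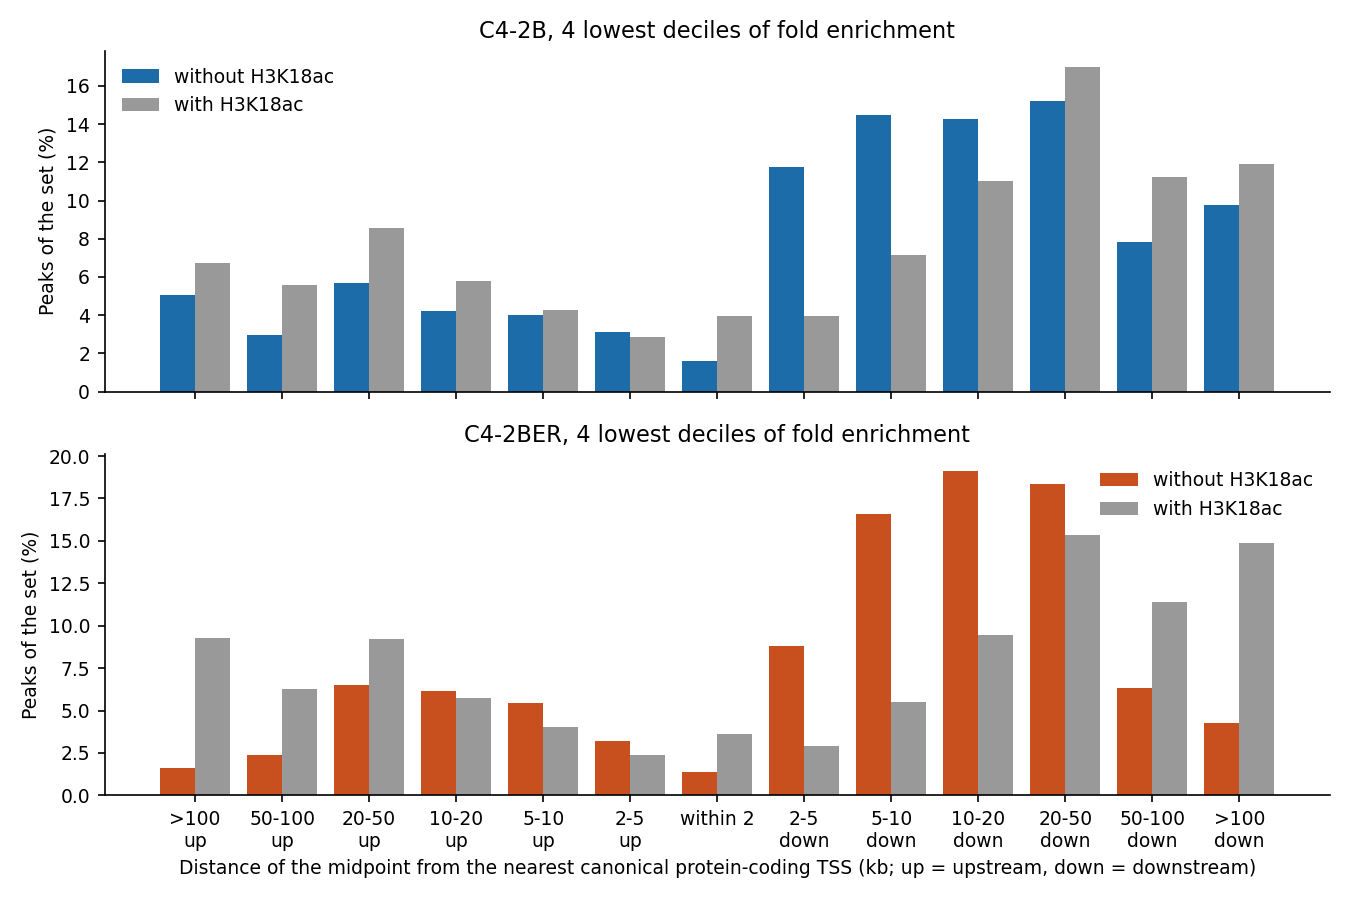
Distance of peak midpoints from the nearest canonical protein-coding TSS (kb, 13 classes) for H3K27ac peaks of the 4 lowest deciles of fold enrichment, as percent of the peaks without or with H3K18ac in each line. Peaks without H3K18ac are higher in the classes from 2 to 20 kb downstream and lower within 2 kb of the TSS in both lines.

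The members were unevenly spread over chromosomes, and differently in the 2 lines. Chromosome Y had few H3K27ac peaks, of which 16 of 50 were members in C4-2B (32%, 20.8 to 45.8) and 6 of 80 in C4-2BER. Among the other chromosomes of C4-2B the highest shares of H3K27ac peaks without H3K18ac were on X (9.79%), 4 (9.49%) and 21 (8.72%). In C4-2BER they were on chromosomes 19 (16.0%), 16 (14.1%), 22 (12.1%) and 17 (11.7%), which are gene-dense, and chromosome 18 had 3.23%. On chromosome 19 the C4-2B share was 6.81%. The densest 1 Mb bin of C4-2B was 101000001 to 102000000 on chromosome 4, with 23 members among 87 H3K27ac peaks. It contains the gene PPP3CA, described below, whose body alone held 21 members, so the bin and the gene are not separate observations. The densest bin of C4-2BER was 10000001 to 11000000 on chromosome 19, with 37 members among 106 peaks, where C4-2B had 16 among 113.

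Genes with many members in the body were then listed, after their values had been seen. A member was found in the body of 2513 of 20033 protein-coding genes in C4-2B (12.5%) and of 3129 in C4-2BER (15.6%), and 1196 genes had one in both lines. PPP3CA at chr4:101023409-101348278, a catalytic subunit of the phosphatase calcineurin, had the most in C4-2B, with 21 members among 69 H3K27ac peaks in C4-2B and 4 among 61 in C4-2BER. The fold enrichment of its C4-2B members ran from 2.48 to 5.32, with a median of 3.43, and they lay from 3.70 to 287.5 kb downstream of the TSS, whose promoter peak had a fold enrichment of 37.2. The next in C4-2B were EFNA5, the ligand ephrin A5, with 16 members, and FBXL17, an F-box protein, with 11. In C4-2BER those genes had 7 and 4. PPFIA2, a liprin scaffold of synapses, had 10 members in C4-2B and 12 in C4-2BER, of which 3 of the C4-2B members overlapped one of C4-2BER. NAALADL2 also had 10 members in C4-2B, and 6 in C4-2BER. These genes are long, from 294.0 kb for EFNA5 to 1372 kb for NAALADL2. Unlike the others named so far, NAALADL2 did not have both marks at its TSS in C4-2B. ARHGAP6 followed with 9 members in C4-2B and 6 in C4-2BER, and had both marks at its TSS in neither line.

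**Figure D4:**
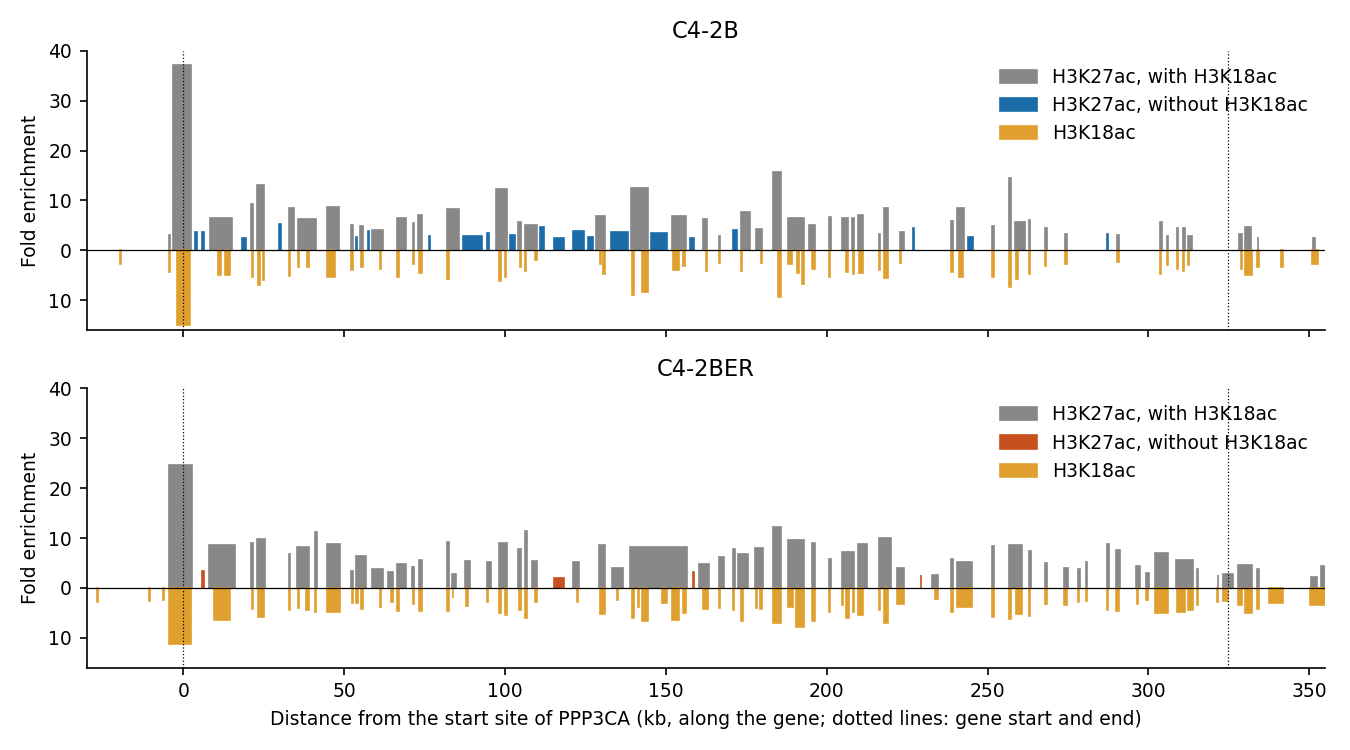
H3K27ac peaks (above the axis) and H3K18ac peaks (below) along PPP3CA in each line, with distance from its TSS in kb on the x axis and fold enrichment as height; coloured H3K27ac peaks have no H3K18ac. The 21 members of C4-2B sit between peaks with both marks along the gene, and C4-2BER has 4.

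Next to PPFIA2, 5 genes led in C4-2BER. TRRAP, a scaffold of histone acetyltransferase complexes, had 12 members in C4-2BER and 3 in C4-2B. SRCAP, a chromatin remodelling ATPase, had 10 and 2, NSD2, a histone methyltransferase, had 9 and 4, and KDM4B, a histone demethylase, had 9 and 0. DNM2, which encodes dynamin 2, had 9 and 0. Their members were weak, with highest fold enrichments in C4-2BER of 3.11 for TRRAP, 2.45 for SRCAP, 2.60 for NSD2, 2.54 for KDM4B and 2.43 for DNM2. All 5 genes had both marks at the TSS in both lines. At least 5 members were found in the body of 134 genes in C4-2BER and of 34 in C4-2B. No enrichment of any gene group was tested.

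Promoter members were found for 757 protein-coding genes in C4-2B (3.78%), 1187 in C4-2BER (5.93%) and 300 in both. The ranking that follows is limited to promoter windows of protein-coding genes, and leaves out those of lncRNA genes. The highest in C4-2B was at CHM, which encodes a Rab escort protein, with a fold enrichment of 7.34. KRR1, a factor of ribosome biogenesis, had 6.64. Both promoters had an H3K18ac peak in C4-2BER, and H3K27ac there had fold enrichments of 8.10 and 6.32. GRB2, an adaptor of receptor tyrosine kinases, NOMO3, a membrane protein of the endoplasmic reticulum, and BANK1, a scaffold of B cell signalling, followed with 6.46, 5.96 and 5.78. The member at GRB2 was at an annotated start site inside the gene, and H3K27ac peaks in other promoter windows of GRB2 reached 17.1. The same held for BANK1, whose other promoter windows reached 24.1. Both genes had H3K18ac in a promoter window in C4-2B. In C4-2BER the highest were CNTNAP3C with 6.75, ZNG1B, a zinc chaperone, with 5.55, LZTS2, a leucine zipper protein, with 4.45, C12orf4 with 4.43 and CCT8, a chaperonin subunit, with 4.36. LZTS2, C12orf4 and CCT8 had an H3K18ac peak in a promoter window of the gene in C4-2BER, which did not overlap the member.

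The 5 genes with promoter members in both lines and the highest lower value were RGPD5, ZNG1A, NOMO3, ZNG1B and SMN2. RGPD5 is a RANBP2-like gene and had fold enrichments of 5.20 in C4-2B and 4.24 in C4-2BER. ZNG1A had 4.46 and 4.09, NOMO3 had 5.96 and 4.02, ZNG1B had 3.72 and 5.55, and SMN2, which encodes a protein of spliceosomal RNP assembly, had 4.1 and 3.38. None of the 5 had H3K18ac in any promoter window in either line. All belong to near-identical gene copies, and the 32-base words of these peaks occurred at a median of 2 to 3 places. The authors kept alignments above a mapping quality, so the reads of such copies can be lost or split, and these 5 are uncertain.

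Repeated sequence was more frequent in members as a whole, and in C4-2BER its share rose with their strength. In 25.8% of C4-2B members (24.5 to 27.1) the median 32-base word of the central window occurred at more than 1 place of the genome, against 17.8% of other peaks. In C4-2BER it was 21.8% (20.7 to 22.9) against 16.0%. Among C4-2BER members with a fold enrichment above 5 it was 14 of 17 (82.4%, 59.0 to 93.8), and from 4 to 5 it was 29 of 55 (52.7%, 39.8 to 65.3), against 11.4% and 19.3% of other peaks. In C4-2B the share did not follow strength: it was 24.8% against 15.0% at or below 2.5, 23.3% against 25.4% from 3 to 4, 24.9% against 21.9% from 4 to 5, and 18 of 57 (31.6%, 21.0 to 44.5) against 12.4% above 5. Runs of at least 8 CA or TG units were in 8 of those 57 C4-2B members (14.0%, 7.29 to 25.3) and in 0.682% of other peaks above 5. Over all C4-2B members it was 2.11% against 0.690%, and in C4-2BER 0.713% against 0.748%. Above 5 in C4-2BER it was 2 of 17 (11.8%, 3.29 to 34.3) against 0.679%. The part of repeats in the absence of an H3K18ac peak was not tested.

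In the second cell line the places of members most often carried neither mark, and next most often both marks. Of the C4-2B members, 855 overlapped H3K27ac and not H3K18ac in C4-2BER (20.2%), 1268 both marks (30.02%), 299 H3K18ac alone (7.08%) and 1802 neither (42.7%). Of the C4-2BER members, 657 overlapped H3K27ac and not H3K18ac in C4-2B (12.0%), 1226 both marks (22.4%), 983 H3K18ac alone (18%) and 2606 neither (47.6%). Of the other H3K27ac peaks, 72.6% and 65.0% met both marks in the second line. An H3K18ac peak of the second line was met by 37.1% of C4-2B members (35.7 to 38.6) against 89.9% of other peaks, and by 40.4% of C4-2BER members (39.1 to 41.7) against 86.7%. In the 4 lowest deciles of fold enrichment this was 30.9% against 78.0% and 42.7% against 80.7%.

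**Figure D5:**
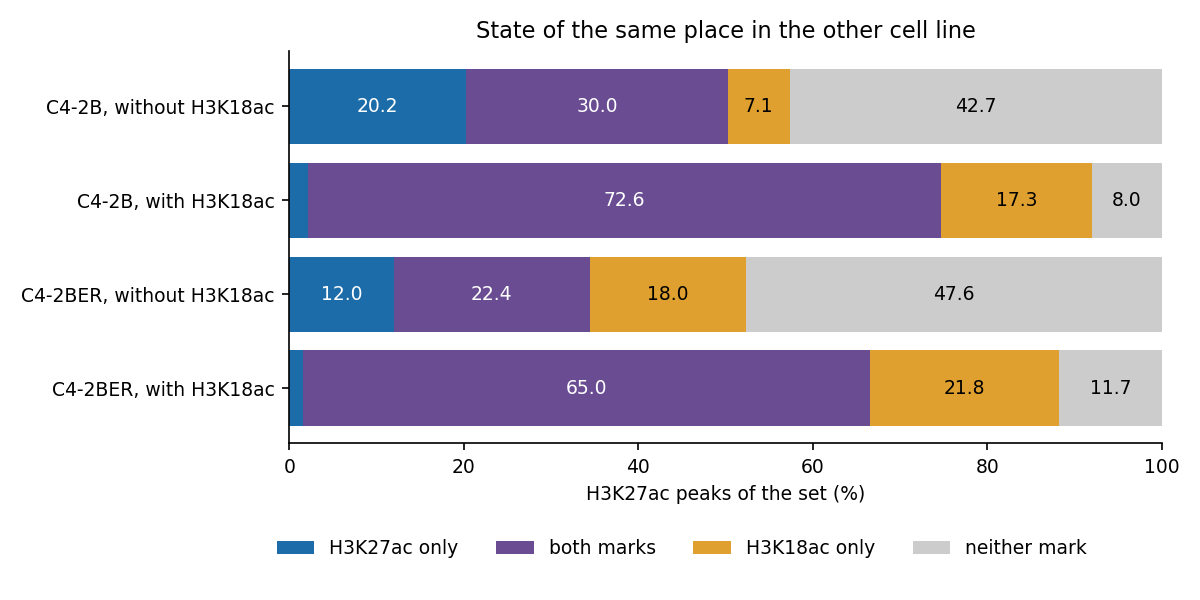
State in the second cell line of the places of H3K27ac peaks without and with H3K18ac, as percent of each set; colours give H3K27ac only, both marks, H3K18ac only and neither mark. Neither mark is the most common state of members, 42.7% in C4-2B and 47.6% in C4-2BER, and both marks that of other peaks.

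The H3K27ac peak itself was often missing from the second line. In C4-2B 49.7% of members (48.2 to 51.2) overlapped no H3K27ac peak of C4-2BER, where 26.8% of all C4-2B H3K27ac peaks did. In C4-2BER it was 65.6% (64.3 to 66.8), where 35.9% of all did. Most of this gap went with strength. Among peaks of the 4 lowest deciles of fold enrichment 54.5% of members and 50.4% of other peaks had no H3K27ac peak in the second line in C4-2B, and 66.5% and 60.2% in C4-2BER.

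Which members met an H3K18ac peak in the second line went with GC content, in opposite directions. Among C4-2B members of GC decile 1, 42.1% met H3K18ac in C4-2BER, in decile 2 it was 56.6%, and in decile 10 it was 2.68%. Among C4-2BER members the share meeting H3K18ac in C4-2B rose from 7.26% in decile 1 to 87.5% in decile 10. The other peaks ranged from 82.6% to 94.3% in C4-2B and from 73.8% to 99.9% in C4-2BER over the same deciles. GC-poor places without H3K18ac in C4-2B thus often had it in C4-2BER, and GC-rich places without it in C4-2BER mostly had it in C4-2B. The part of the difference in GC content between the lists was not tested.

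Most members of a line overlapped no member of the other, but they did so more often than other peaks. In C4-2B 619 members (14.7%, 13.6 to 15.8) overlapped a member of C4-2BER, and in C4-2BER 606 (11.1%, 10.3 to 11.9) overlapped one of C4-2B, in 620 pairs. They shared 0.310 Mb, with a median of 344 bp per pair, and 303 pairs shared at least 50% of both peaks. A member of the second line was met by 2.78% of all C4-2B H3K27ac peaks and 2.85% of all C4-2BER H3K27ac peaks. Any H3K27ac peak of the second line was met by 73.2% and 64.1%. Both sets together made 9076 regions over 7.28 Mb. The lines are compared at the same places here, so the overlap is limited by the H3K27ac peaks that both lists hold.

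The shared members were more often at annotated start sites than the members of 1 line only, and in C4-2BER they were also stronger. Their median fold enrichment was 2.59 in C4-2B (2.53 to 2.62), against 2.63 for members not shared (2.62 to 2.65), and 2.37 in C4-2BER (2.35 to 2.42), against 2.25 (2.24 to 2.26). In 488 pairs (78.7%) both midpoints were in a protein-coding gene with both marks at its TSS in both lines. In a promoter window were 33.9% of the 619 (30.3 to 37.7), against 20.7% of the C4-2B members not shared, and 36.3% of the 606 (32.6 to 40.2), against 29.96% in C4-2BER. Of each shared set, 31.8% lay 2 to 10 kb downstream of a canonical TSS. Among the strongest shared places was an intron of PSMB2, a proteasome subunit, 2440 bp downstream of the TSS, with fold enrichments of 4.83 and 4.58. Its 32-base words occurred at a median of 192 places in the C4-2B window and 23.5 in the C4-2BER window. The CITED2 region shown above had 5.16 and 5.71, and its gap to H3K18ac was 1028 bp in C4-2B and 1082 bp in C4-2BER.

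Some genes known to respond to androgen held members as well. CENPN, a centromere protein, had a promoter member in C4-2B with a fold enrichment of 2.69, and 3 members in the body in C4-2B and 2 in C4-2BER. ABCC4, a drug and nucleotide efflux transporter, and ACSL3, an acyl-CoA synthetase, had 3 each in the body in C4-2B, with highest fold enrichments of 2.94 and 4.44, and none in C4-2BER. FKBP5, a co-chaperone of steroid receptors, had 1 in C4-2B at 2.87 and none in C4-2BER. KLK3, KLK2 and TMPRSS2 had no member in the promoter or body in either line. These genes are examples from a list that is not reported whole here, so no share of the list is read from them.

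Of the 14 luminal genes, 2 had a promoter member in each line (14.3%), against 3.78% of all protein-coding genes in C4-2B and 5.93% in C4-2BER, counts too small to read further. They were ELF3 and GRHL2, both epithelial transcription factors, in C4-2B, with fold enrichments of 2.17 and 2.54, and CDH1, E-cadherin, and ESRP1, an epithelial splicing regulator, in C4-2BER, with 2.22 and 2.14. A member in the body was found in 3 of the 14 in C4-2B (21.4%) and 2 in C4-2BER (14.3%), against 12.5% and 15.6% of all protein-coding genes. CDH1 had 2 in C4-2B and 3 in C4-2BER, ESRP1 had 1 and 2, and GRHL2 had 2 in C4-2B and none in C4-2BER. None of the 23 neuroendocrine genes, the 11 genes of the HOXA cluster or the 7 genes of a separate list of factors had a member in the promoter or body in either line. Of all protein-coding genes, 12.5% and 15.6% had one in the body. The list of factors does not hold all those examined in the paper. ELF3 is counted with the luminal genes instead. Of the neuroendocrine genes 12 had an H3K27ac promoter peak to start with. Among 18 genes of neuronal adhesion and guidance, CNTN1, ROBO1 and SEMA3C had 1 member in the body in C4-2B, and DAB1 and ROBO1 had 1 in C4-2BER. ROBO1, a receptor for Slit guidance proteins, had fold enrichments of 3.02 and 2.09, and DAB1, an adaptor of reelin signalling, 3.73.

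Gene families gave a wider view. Of 84 ribosomal protein genes, 9 had a member in the body in C4-2B (10.7%) and 20 in C4-2BER (23.8%), and 3 (3.57%) and 6 (7.14%) had a promoter member. Of 508 zinc finger genes, 46 had a member in the body in C4-2B (9.06%) and 48 in C4-2BER (9.45%), and 8 (1.57%) and 14 (2.76%) had a promoter member. None of 415 olfactory receptor genes, of which 6 had an H3K27ac promoter peak in C4-2B and 9 in C4-2BER, had a member in the promoter or body. Of all protein-coding genes, 12.5% and 15.6% had a member in the body and 3.78% and 5.93% a promoter member. The zinc finger shares were below these in both lines. The ribosomal promoter shares were near those of all genes in both lines, as was the body share in C4-2B. The ribosomal body share in C4-2BER was higher, and the counts are small. The lists were not tested against other genes.

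Short motifs were counted in the central 300 bp of every H3K27ac peak, on both strands, and no motif searched contains another. The letters were TGTTTAC for the forkhead core, CAATAAA for HOXB13, TGANTCA for AP-1, CCGGAAG for ETS, AGGGGGC for the CTCF core, GCGCATGC for NRF1, GGGCGG for the GC box, CAGCTG for the E-box, AGATAA for GATA and TGATTGAT for PBX-HOX. The GC box was in 11.1% of C4-2B members (10.2 to 12.1) and 10.9% of C4-2BER members (10.1 to 11.7), where 22.9% and 18.2% of all H3K27ac windows had it. The CTCF core was in 3.55% and 5.46% of members and in 8.5% and 7.17% of all windows, and ETS in 1.68% and 1.63% against 3.35% and 2.80%. Within the 4 lowest deciles of fold enrichment these gaps between members and other peaks were smaller in C4-2BER, with 10.8% against 12.8% for the GC box, 5.50% against 6.70% for the CTCF core and 1.65% against 1.73% for ETS, whose intervals overlap. In C4-2B they were 11.9% against 18.3%, 3.41% against 8.73% and 1.63% against 2.38%. The forkhead core was in 3.93% of C4-2B members, against 4.33% of all, and in 2.98% of C4-2BER members (2.56 to 3.46), against 4.92%.

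Of the other motifs, GATA and AP-1 were more frequent in C4-2B members and less frequent in C4-2BER members than in all windows. HOXB13 was in 5.4% of C4-2B members against 3.97% of all windows, and in 4.59% of C4-2BER members against 5.15%. GATA was in 13.1% against 9.71% and in 10.6% against 12.1%, and AP-1 in 8.59% against 7.28% and in 6.60% against 8.19%. The E-box was in 14.4% against 18.6% and in 17.9% against 17.2%. NRF1 was in 1.52% against 1.46% and in 1.39% against 1.29%, and PBX-HOX in 0.758% against 0.442% and in 0.567% against 0.563%. The C4-2B members are GC-poor, and HOXB13, GATA, AP-1 and PBX-HOX matches were more frequent in them than in all windows, while forkhead matches were not. The part of base composition in these shares was not tested, and a match is not a bound site.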

How the data were processed

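Both histone marks were profiled by ChIP-seq in 10 libraries, inputs included, of C4-2B and its enzalutamide-resistant derivative C4-2BER. According to the study's methods, reads were aligned to GRCh38 with Bowtie2, filtered for blacklisted regions, low mapping quality and duplicates (Picard), and replicates were merged before peaks were called with macs2. The submitters' processing notes also name bcl2fastq 2.17, Trimmomatic 0.33, Bowtie2 2.2.3 and deepTools. The study's methods give a different Bowtie2 version. The macs2 version and cut-offs are not given in the sources used here. The 4 deposited broadPeak lists give each peak's fold enrichment over the local background, computed by the authors with macs2. The authors' lists also give the −log10 q-value, used here for stricter thresholds, and a display score derived from it, which was not used. Depth is unknown, and each list stands for 2 merged libraries, so there is no replicate error and no test was made. Intervals are 95% Wilson intervals for shares and 95% order-statistic intervals for medians, and cover counting error only, with neighbouring peaks treated as independent.

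Members were H3K27ac peaks that shared not even 1 base with H3K18ac. Members and gene lists were chosen with earlier results of these data known. Genes and promoters came from GENCODE 44. GC content was read from GRCh38 over the whole peak, and motifs and repeats in the 300 bp around each midpoint. Repeats were counted as the median number of genomic places of 8 words of 32 bases, since the genome used here carries no repeat mask. The 5 members or promoters of highest fold enrichment in each line, and in both, were named. Genes with the most members were added after their values were seen, as was PPP3CA for the map. Scripts used Python 3.11.15, numpy 2.4.6, pandas 2.3.3, scipy 1.17.1, numba 0.67.0 and matplotlib 3.10.9. The selection was tested on 6000 simulated intervals, some planted as members and the rest as overlapping, and 100% were labelled correctly. This checks the overlap rule only and not peak calling. Alternatives changed the peak thresholds, overlap, gap, chromosomes and promoter window. Some genes, motifs and sequences that were analysed are not reported here.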

Additional observations from a re-analysis of the deposited data

How the results depend on the processing

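Values below are for C4-2B and then C4-2BER, and differences are members minus other peaks in percentage points. As reported, members numbered 4224 and 5472, the share in genes with both marks at the TSS (the gene-body difference) was 12.8 and 27.8 points higher, the median GC content differed by −5.44 and 0.428 points, and 619 C4-2B members overlapped a C4-2BER member. Restriction to chromosomes 1 to 22 left 4048 and 5367 members and moved no share, median or difference beyond its interval. The gene-body difference turned round with H3K27ac peaks of −log10 q of at least 5 or of fold enrichment of at least 4, but not among the 50000 strongest, and in C4-2BER with H3K18ac peaks of fold enrichment of at least 4, but not of −log10 q of at least 5. The GC difference of C4-2BER turned round in 7 of 11 settings and has no stable sign. The fewer peaks under stricter thresholds follow from the thresholds themselves, and for the other changes the cause was not tested. With H3K27ac peaks of −log10 q of at least 5, members numbered 686 and 412 (1.89% and 0.964%), 17.9% and 23.1% of members were at promoters, the median fold enrichment was 3.79 and 3.30, the gene-body difference was −13.3 and −8.82, the GC difference was −8.10 and −4.85 and 67 overlapped. With H3K27ac peaks of fold enrichment of at least 4, members numbered 230 and 72 (0.795% and 0.245%), 20.4% and 31.9% of members were at promoters, the median fold enrichment was 4.53 and 4.43, the gene-body difference was −25.6 and −34.1, the GC difference was −9.40 and −3.48 and 17 overlapped. With H3K18ac peaks of −log10 q of at least 5, members numbered 26253 and 22494 (38.6% and 30.8%), 20.9% and 21.1% of members were at promoters, the median fold enrichment was 2.37 in C4-2BER, the gene-body difference was 9.36 and 11.1, the GC difference was −1.04 and 0.122 and 6572 overlapped. With H3K18ac peaks of fold enrichment of at least 4, members numbered 38239 and 45249 (56.2% and 62%), 20.4% and 19.5% of members were at promoters, the median fold enrichment was 2.77 and 2.66, the gene-body difference was 2.13 and −1.53, the GC difference was −2.28 and −2.38 and 17201 overlapped. With H3K18ac counted from 50% of the H3K27ac peak covered, members numbered 8031 and 8850 (11.8% and 12.1%), 25.8% and 34.8% of members were at promoters, the median fold enrichment was 2.81 and 2.34, the gene-body difference was 11.1 and 24.8, the GC difference was −7.61 and −0.72 and 1673 overlapped. With H3K18ac within 1000 bp counted, members were 5.56% and 6.88% of peaks and the median fold enrichment was 2.64 in C4-2B. With no H3K18ac peak allowed in either line, members numbered 2657 and 3263 (3.91% and 4.47%), 25.7% and 27.6% of members were at promoters, the median fold enrichment was 2.54 and 2.27, the gene-body difference was 19.2 and 25.8 and the GC difference was −3.27 and −2.10. With the 50000 H3K27ac peaks of highest fold enrichment, members numbered 2000 and 810 (4% and 1.62%), 18.9% and 24.3% of members were at promoters, the median fold enrichment was 3.07 and 2.93, the gene-body difference was 2.39 and 5.12, the GC difference was −6.03 and −2.77 and 154 overlapped. With windows whose 32-base words had 1 place only, members were 5.64% and 7.02% of peaks, 32% of C4-2BER members were at promoters, the median fold enrichment was 2.25 in C4-2BER, the gene-body difference was 9.33 in C4-2B, the GC difference was −7.82 in C4-2B and 371 overlapped. With the 4 lowest deciles of fold enrichment, the gene-body difference was 20.3 and 33.9 and the GC difference was −6.37 and −0.27. The promoter share became 30.02% and 39.7% with windows of 2000 bp on both sides, 20.3% and 28.2% with 1000 bp, 4.52% and 4.73% with canonical start sites only, and 19.7% and 27.4% with protein-coding genes only. Requiring 50% of both peaks left 303 overlapping C4-2B members. The restrictions to the 4 lowest deciles and to windows with 1 place were chosen after seeing the data. No paired analysis was possible because each list pools its replicates and the results come from no test. For the same reason no replicate could be left out. Depth is unknown, so the absence of a called H3K18ac peak near the caller's threshold cannot be told from low coverage.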
